A study of Mus musculus with 8 samples.

Results

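The 36 genes described here encode extracellular matrix proteins and the enzymes that crosslink or cut them, and were followed in mouse embryonic fibroblast (MEF) feeder cells and in the mouse embryonic stem (ES) cells grown on them. They were chosen by gene symbol, and all 36 were found among the 54146 gene identifiers of the deposited count tables. The ES cells were derived from the inner cell mass and were cultured on gelatin-coated plates with MEF feeders in LIF/2i medium, in an untreated (control) group and a group given CX-5461, an RNA polymerase I inhibitor. Single-cell RNA-seq libraries were made with 10x Genomics 3' V2 reagents, and each captured RNA molecule was counted once through its unique molecular identifier (UMI), whatever the length of the gene. The labels name 4 samples per condition, but all cells of a condition stand in 1 table without a sample of origin. The single-cell experiment is described as having a single biological replicate. Each condition was therefore treated as 1 library, no p-value was computed, and all intervals are exact 95% intervals that cover counting error only. The dose and duration of the CX-5461 treatment are not stated in the labels of these samples. Feeders shared the culture and the treatment with the ES cells, and neither their strain nor their age is given.

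A barcode was kept from 500 UMIs upward when its mitochondrial fraction did not exceed 0.2, which left 3767 of 3838 control barcodes and 4697 of 4922 CX-5461 barcodes, with medians of 12987 and 14213 UMIs. The tables name their barcodes by serial number, so barcodes shared between the libraries could not be counted. Doublets were neither called nor removed. A cell was taken as a feeder when Col1a1, Col1a2 and Col3a1 together held at least 0.1% of its UMIs. This gave 141 feeders in the control library, 3.74% (3.16 to 4.40) of its kept cells, and 146 in the CX-5461 library, 3.11% (2.63 to 3.65). Because these 3 collagens chose the feeders, their own levels are a description, and counts over members refer to the other 33 genes. At the edge of the choice the lowest collagen share inside was 0.101% in control and 0.105% in CX-5461, and the highest outside was 0.0996% and 0.0992%.

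The extracellular matrix is the protein scaffold that cells secrete around themselves. Fibroblasts build its interstitial form, in which fibrillar collagens assemble into fibres that lysyl oxidases crosslink and small proteoglycans decorate, while a sheet of type IV collagen, laminin and nidogen forms the basement membrane on which epithelia rest. Matrix metalloproteinases cut these proteins and TIMPs inhibit the metalloproteinases. MEF feeders are used under ES cells to supply adhesion and secreted factors, and pluripotent cells also make basement membrane components of their own.

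Levels were taken as UMIs summed over all cells of a class and scaled to 1000000 UMIs of that class (CPM). The feeder label held against genes that did not choose the cells. The 12 fibroblast markers outside the member list (Thy1, Pdgfrb, Prrx1, Cxcl12, Ccl2, Ccl7, Serpinf1, Cd248, Thbs2, Acta2, Tagln and Twist2) summed to 5371 CPM in control feeders and 4944 CPM in CX-5461 feeders, and none of them was at 0. In ES cells with under 0.02% of UMIs on the 3 collagens, called collagen-low ES cells below, the same 12 genes summed to 23.2 and 31.2 CPM. The sum of the 10 ES cell markers went the other way, with 551 and 419 CPM in feeders against 7530 and 7969 CPM in collagen-low ES cells. Dppa5a made up 4997 and 5838 CPM of the ES cell sums. Klf4 was the exception and was higher in feeders, with 158 and 187 CPM against 89.8 and 133 CPM. A Pou5f1 UMI was present in 55.3% of control feeders and 28.1% of CX-5461 feeders, against 88.5% and 98.0% of collagen-low ES cells, and whether these are doublets or stray ES cell RNA was not tested. Of the 8 macrophage markers, C1qa, C1qb and Adgre1 were at 0 in the feeders of both libraries, and the list summed to 16.2 and 17.8 CPM there, most of it Cd68. The 5 endothelial markers summed to 2.76 and 3.78 CPM in feeders with Cdh5 at 0, the 8 primitive endoderm markers to 19.0 and 26.4 CPM with Gata4, Sox17 and Foxa2 at 0, and the 4 globin genes to 0.306 and 0.809 CPM.

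The threshold did not cut the libraries alike. Between 0.02% and 0.1% of collagen UMIs lay 64 control cells but 19 CX-5461 cells, and in the control library these cells summed to 5563 CPM of the 12 fibroblast markers and 607 CPM of the ES markers, against 3096 and 1846 CPM in the CX-5461 cells of that range. The class of all cells under 0.1%, used as ES cells in the main comparison (3626 control and 4551 CX-5461 cells), therefore held more cells rich in fibroblast markers in the control library, and the collagen-low class (3562 and 4532 cells) was added after this was seen. For the same reason feeders were also taken as all cells with at least 0.05% of UMIs on the 12 fibroblast markers, which gave 222 control and 171 CX-5461 cells. Of these, 61.7% in control and 85.4% in CX-5461 also passed the collagen threshold. Median depth per feeder was 22538 UMIs in control and 24958.5 in CX-5461, and the median mitochondrial share was 1.91% and 3.12%. The part of that quality difference in the comparisons below was not tested.

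**Figure D1:**
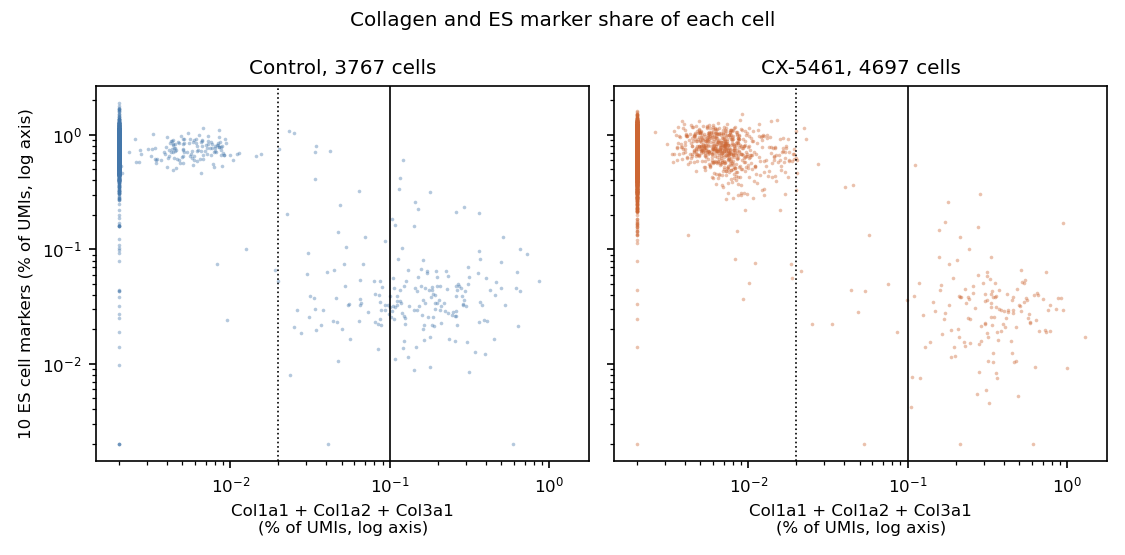
Each point is a kept cell of the control (left) or CX-5461 (right) library; the x axis gives the percentage of its UMIs on Col1a1, Col1a2 and Col3a1 and the y axis the percentage on 10 ES cell markers, both on log axes, with cells below the axis range drawn at the edge. The solid line is the 0.1% feeder threshold and the dotted line the 0.02% limit. Between the lines lie 64 control cells, whose ES markers summed to 607 CPM, and 19 CX-5461 cells, whose ES markers summed to 1846 CPM.

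In feeders the members spanned 4 orders of magnitude. Of the UMIs of the 33 members not used for selection, the 5 highest genes held 61.7% in control and 66.7% in CX-5461. All of them were glycoproteins, proteoglycans or inhibitors. These 33 members summed to 7216 CPM in control feeders and 12892 CPM in CX-5461 feeders. Sparc, which encodes a secreted collagen-binding glycoprotein also called osteonectin, was the highest, with 2336 CPM in control and 5234 CPM in CX-5461, and was detected in 100% of feeders of either library. It alone held 32.4% of the members' UMIs in control feeders and 40.6% in CX-5461 feeders. Timp1, a metalloproteinase inhibitor, followed with 907 and 1527 CPM, ahead of the proteoglycan biglycan (Bgn) with 505 and 688 CPM. At the low end stood Lama1, the laminin α1 chain, with 1 UMI in the feeders of each library, elastin (Eln) with 16 and 40 UMIs, and Mmp3, stromelysin-1, with 35 and 18 UMIs. A UMI was found in at least 95% of feeders for 4 members in control and 12 in CX-5461, and in at least 50% of feeders for 24 and 29. The 3 selecting collagens were also among the highest genes: Col1a1 stood at 1036 and 1442 CPM, Col1a2 at 961 and 1313 CPM and Col3a1 at 282 and 887 CPM.

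**Figure D2:**
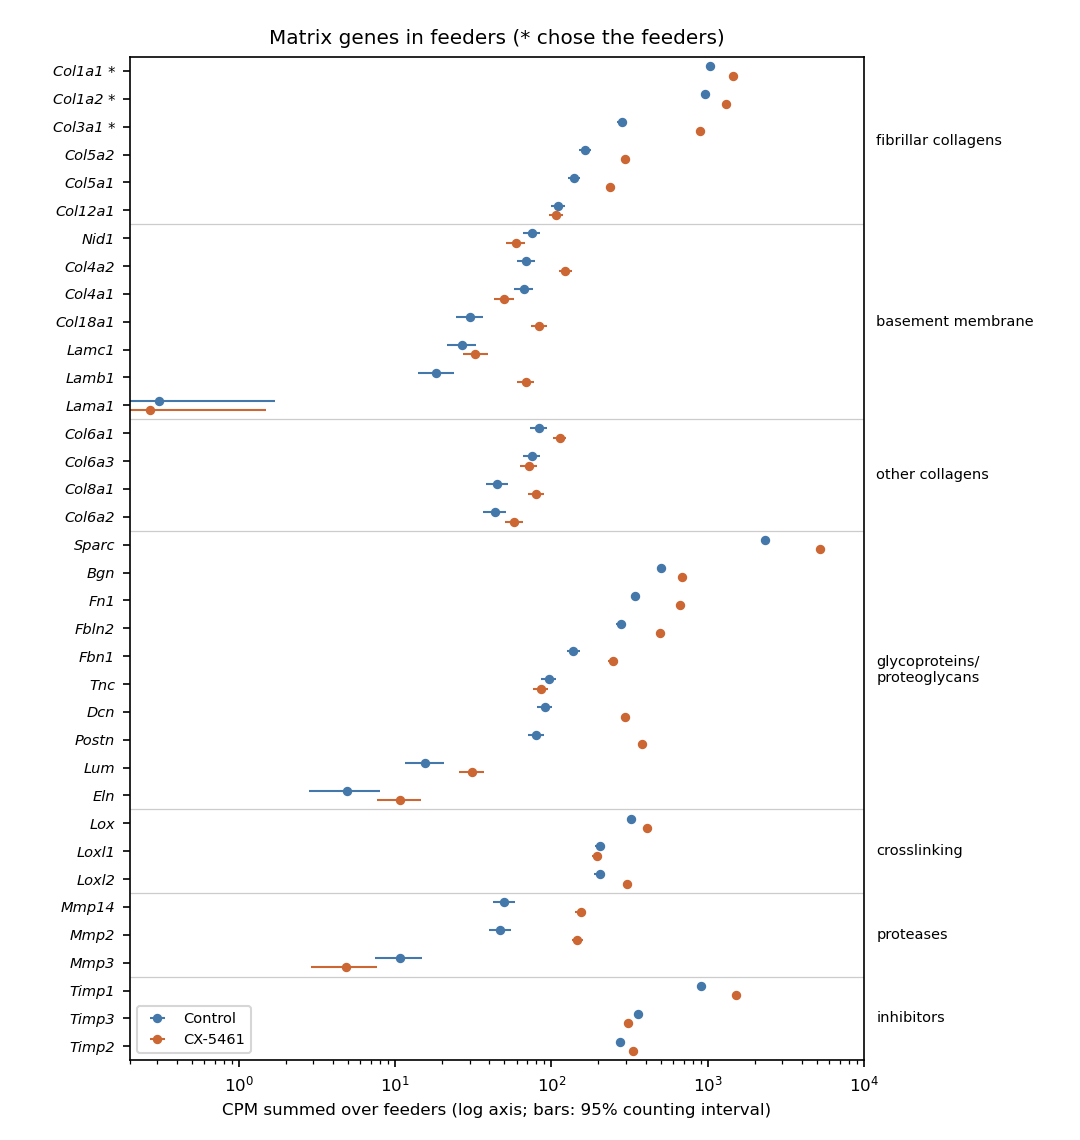
Levels of the 36 genes summed over feeders, in CPM on a log axis, in control (blue) and CX-5461 (orange), with 95% counting intervals and genes grouped by role. Sparc is highest in both libraries at 2336 and 5234 CPM, Lama1 rests on 1 UMI per library, and asterisks mark the 3 genes that chose the feeders.

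Most matrix genes that differed between the libraries were higher in the CX-5461 feeders. A gene was counted as higher or lower when its CPM ratio of CX-5461 over control reached 1.5-fold either way with at least 50 UMIs over both libraries. By this rule 17 of the 33 members were higher in CX-5461 feeders, against 22.8% of the 7830 genes measured in feeders, and 1 was lower, against 11.6%. Another 14 did not reach 1.5-fold and Lama1 had too few UMIs. The median log2 ratio of the 32 measured members was 0.76 and that of all genes 0.16. Under a TMM scaling between the summed profiles, which lowers every feeder log2 ratio by 0.17, 17 members were still higher and 1 lower. The difference was spread over the cells: the 33 members held a median of 0.714% of a control feeder's UMIs (quartiles 0.574% and 0.855%) and 1.26% of a CX-5461 feeder's (1.04% and 1.49%). Of the 146 CX-5461 feeders, 140 lay above the control median, 136 above the control upper quartile and 15 above the highest control feeder, while 9 of 141 control feeders exceeded the CX-5461 median. Without Sparc, the other members still summed to 4880 CPM in control and 7658 CPM in CX-5461, a ratio of 1.57.

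**Figure D3:**
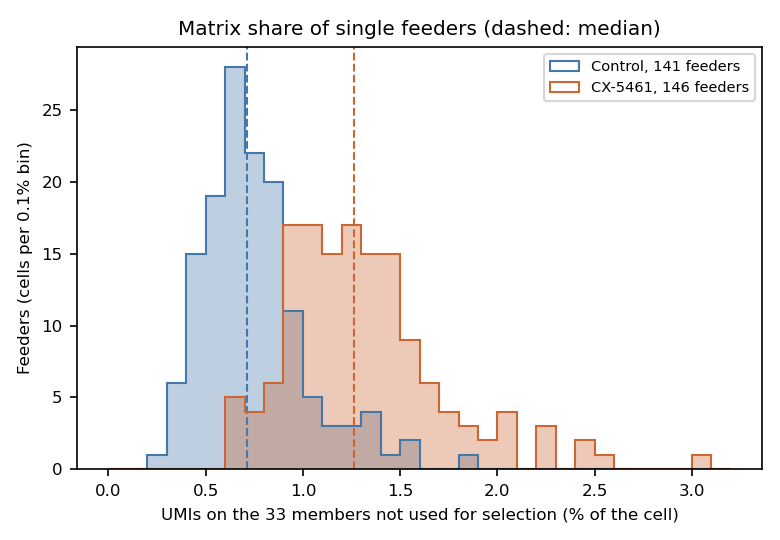
Number of feeders per 0.1% bin (y axis) against the share of a feeder's UMIs on the 33 members not used for selection (x axis), in control (blue) and CX-5461 (orange). Dashed lines mark the medians, 0.714% and 1.26%; the distributions overlap, with 9 of 141 control feeders above the CX-5461 median.

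The glycoproteins and proteoglycans showed the most members past 1.5-fold, with 8 of 10 higher in CX-5461 feeders and none lower, beside 22.8% and 11.6% of all genes. Periostin (Postn), a matrix protein of remodelling connective tissue, had the highest ratio of all members: 79.9 CPM in control and 381 CPM in CX-5461, a ratio of 4.77 (4.18 to 5.47). It was detected in 50.4% of control feeders and 85.6% of CX-5461 feeders. Detection also rises with the level and with depth, so whether more feeders expressed it was not tested. Decorin (Dcn), a small proteoglycan that binds collagen fibrils, stood at 90.4 and 295 CPM, a ratio of 3.27 (2.87 to 3.73), and its relative lumican (Lum) at 15.6 and 31.0 CPM. Sparc reached a ratio of 2.24 (2.18 to 2.301). Fibronectin (Fn1), the adhesive glycoprotein that binds integrins, went from 343 to 662 CPM, fibrillin-1 (Fbn1), the core of elastic microfibrils, from 138 to 247 CPM, and fibulin-2 (Fbln2) from 278 to 494 CPM, with ratios between 1.78 and 1.93. Elastin had 4.90 and 10.8 CPM, a ratio of 2.20 (1.21 to 4.21), and 13 of its 16 control UMIs came from 1 feeder. Without the top cell of each library 3 and 32 UMIs remained, a ratio of 9.42 (2.95 to 48.1), which is under the minimum of 50 UMIs. Biglycan at 1.36 (1.28 to 1.45) and tenascin C (Tnc) at 0.886 (0.756 to 1.04) did not reach 1.5-fold.

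The fibrillar collagens and their partners were split. Col5a1 and Col5a2, the chains of the type V collagen that nucleates type I fibrils, were both higher in CX-5461 feeders: Col5a1 at 140 and 238 CPM, a ratio of 1.70 (1.52 to 1.91), and Col5a2 at 164 and 298 CPM, a ratio of 1.82 (1.64 to 2.02). The 2 chains kept nearly the same proportion, with 0.852 Col5a1 UMIs per Col5a2 UMI in control feeders and 0.798 in CX-5461 feeders. Col12a1, a collagen that lies along fibrils, had 111 and 107 CPM and a ratio of 0.963 (0.833 to 1.11). Among the selecting genes, Col1a1 had a ratio of 1.39 and Col1a2 of 1.37, so the proportion of the α1 to the α2 chain of type I collagen was 1.08 (1.03 to 1.13) in control and 1.10 (1.06 to 1.14) in CX-5461. Col3a1, the type III chain, had a ratio of 3.15. These 3 ratios were read in cells chosen by the same genes, and in the feeders chosen by the 12 fibroblast markers they were 1.65, 1.63 and 3.78.

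The basement membrane genes did not move together. Lamb1, the laminin β1 chain, had 18.4 CPM in control and 68.5 CPM in CX-5461 feeders, a ratio of 3.73 (2.80 to 5.03). Col18a1, whose product is a proteoglycan that carries endostatin at its end, had 30.0 and 83.4 CPM, a ratio of 2.78 (2.21 to 3.52). Lamc1, the laminin γ1 chain, had 26.6 and 32.6 CPM with a ratio of 1.22 (0.922 to 1.63). Nidogen-1 (Nid1), which links laminin to type IV collagen, had 75.04 and 59.1 CPM, a ratio of 0.787 (0.653 to 0.949). The α1 and α2 chains of type IV collagen, which assemble together, parted: Col4a1 had 66.5 and 49.9 CPM, a ratio of 0.751 (0.614 to 0.918), and Col4a2 had 69.2 and 123 CPM, a ratio of 1.78 (1.51 to 2.09). Control feeders thus held 1.04 (0.861 to 1.26) Col4a2 UMIs per Col4a1 UMI and CX-5461 feeders 2.46 (2.07 to 2.94), and in feeders chosen by fibroblast markers these proportions were 1.08 and 2.36. Whether the counting used strand is not stated in the sources used here, and the 2 genes overlap on opposite strands in the annotation.

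The 2 type IV collagen genes lie head to head on chromosome 8, with annotated starts 21 bases apart, so their promoter windows are shown because 1 stretch of DNA serves both starts. The windows run from 250 bases before to 50 after each start and come from RefSeq on GRCm38.p6. The 78 bases that both windows contain, read from opposite strands (chr8:11312777-11312854), are in capitals.
Col4a1, minus strand, chr8:11312777-11313076: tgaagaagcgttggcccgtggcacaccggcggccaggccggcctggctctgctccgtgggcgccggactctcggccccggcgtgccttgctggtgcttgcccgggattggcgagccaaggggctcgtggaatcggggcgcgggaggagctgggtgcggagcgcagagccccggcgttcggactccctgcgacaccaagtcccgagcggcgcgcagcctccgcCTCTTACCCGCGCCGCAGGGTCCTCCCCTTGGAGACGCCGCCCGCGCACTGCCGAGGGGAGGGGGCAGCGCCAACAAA
Col4a2, plus strand, chr8:11312555-11312854: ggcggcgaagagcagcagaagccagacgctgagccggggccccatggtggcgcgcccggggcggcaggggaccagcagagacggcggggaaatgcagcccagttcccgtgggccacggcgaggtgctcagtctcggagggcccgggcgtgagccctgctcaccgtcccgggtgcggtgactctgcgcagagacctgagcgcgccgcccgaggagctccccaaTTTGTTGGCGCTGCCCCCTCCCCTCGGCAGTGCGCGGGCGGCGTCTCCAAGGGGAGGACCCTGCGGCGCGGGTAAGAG
Such windows were found for 23 of the 36 members, 27 windows in all. The GC box letters GGGCGG, searched on both strands, were in 19 of the 27 member windows (70.4%) and in 35.7% of all 32851 windows, and both type IV collagen windows hold them.

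The TATA box letters TATAAA, also searched on both strands, were in 5 of the 27 member windows (18.5%) and in 13.6% of all windows. They belong to 4 genes, Col3a1, Mmp3, Postn and Tnc, which include the member with the highest ratio in feeders (Postn) and the only lower member (Mmp3). These windows are shown with the match in capitals, 26 bases before the annotated start in Postn and 7 bases before it in Mmp3. The ratios of the other genes with the match were 3.15 for Col3a1 and 0.886 for Tnc, so the members that hold the letters ran in both directions.
Postn, plus strand, chr3:54360857-54361156: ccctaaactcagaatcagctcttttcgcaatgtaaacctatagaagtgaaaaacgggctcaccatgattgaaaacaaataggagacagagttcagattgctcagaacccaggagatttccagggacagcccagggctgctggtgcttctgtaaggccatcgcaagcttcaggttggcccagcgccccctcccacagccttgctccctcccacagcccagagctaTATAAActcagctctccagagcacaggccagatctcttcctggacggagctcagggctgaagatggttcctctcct
Mmp3, plus strand, chr9:7445572-7445871: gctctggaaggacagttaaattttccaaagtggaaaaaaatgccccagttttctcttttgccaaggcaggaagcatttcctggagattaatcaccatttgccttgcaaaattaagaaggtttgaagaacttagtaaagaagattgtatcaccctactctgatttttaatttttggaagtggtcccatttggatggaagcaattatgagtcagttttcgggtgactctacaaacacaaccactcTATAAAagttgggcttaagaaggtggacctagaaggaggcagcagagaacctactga

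Of the other collagens, Col8a1, a short-chain collagen, was higher in CX-5461 feeders with 45.0 and 79.6 CPM, a ratio of 1.77 (1.45 to 2.17). The 3 chains of type VI collagen, which forms beaded filaments around cells, stayed under 1.5-fold. Their ratios were 1.36 (1.16 to 1.59) for Col6a1, 1.33 (1.07 to 1.65) for Col6a2 and 0.953 (0.798 to 1.14) for Col6a3. Within single feeders Col6a1 and Col6a2 varied together weakly, with Spearman correlations of 0.352 in control and 0.438 in CX-5461 over 141 and 146 cells, as did Col4a1 and Col4a2 (0.487 and 0.358) and Col1a1 and Col1a2 (0.516 and 0.624). Other chain pairs did not: Col5a1 and Col5a2 had -0.103 in control and 0.312 in CX-5461, and Lamb1 and Lamc1 had -0.119 and -0.0808. These values share the depth of each cell and are given as a description.

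None of the 3 crosslinking enzymes reached 1.5-fold. Lox, lysyl oxidase itself, had 325 and 409 CPM, a ratio of 1.26 (1.16 to 1.36), and its relatives Loxl1 and Loxl2 had ratios of 0.956 (0.859 to 1.06) and 1.498 (1.36 to 1.65), the latter just below the limit. The proteases went both ways. The gelatinase Mmp2 had 46.9 and 147 CPM, a ratio of 3.13 (2.61 to 3.77), and its membrane-bound activator Mmp14 had 49.9 and 154 CPM, a ratio of 3.09 (2.59 to 3.69). Mmp2 was detected in 44.0% of control feeders and 86.3% of CX-5461 feeders, and Mmp14 in 60.3% and 95.2%. Mmp3 had 10.7 and 4.86 CPM, a ratio of 0.453 (0.242 to 0.822), but 12 of its 35 control UMIs and 8 of its 18 CX-5461 UMIs came from 1 cell each. Without these cells the Mmp3 ratio was 0.381 (0.162 to 0.833) on 23 and 10 UMIs, under the minimum for a call. Among the inhibitors, Timp1 was higher with a ratio of 1.68 (1.61 to 1.76), while Timp2 had 276 and 333 CPM and Timp3, which is bound in the matrix, had 358 and 308 CPM.

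The counts depended on how feeders were chosen. With feeders chosen by the 12 fibroblast markers, 20 of the 33 members were higher, against 23.4% of all genes, and 1 was lower, against 10.9%. Postn then had a ratio of 5.22, Dcn of 3.57 and Sparc of 2.32. In these marker-chosen cells the 8 macrophage markers summed to 92.3 CPM in control and 17.8 CPM in CX-5461. In the collagen-chosen feeders they summed to 16.2 and 17.8 CPM. The part of that difference in the ratios was not tested. At a collagen threshold of 0.5%, which left 11 control and 34 CX-5461 feeders, 10 members were higher, against 27.2% of all genes, and 5 lower, against 15.7%, and Col5a2, Col8a1 and Col18a1 turned from higher to a log2 ratio below 0. Without feeders that held a Pou5f1 UMI, 16 were higher, against 25.3%, and 1 lower, against 10.7%. The selecting collagens took a median of 0.193% of UMIs in control feeders and 0.333% in CX-5461 feeders, and 0.123% and 0.306% in feeders chosen by the fibroblast markers. Other feeder genes differed as well. The contractile genes of the marker list were lower in CX-5461 feeders, with Acta2 (smooth muscle actin) at 2494 and 948 CPM and Tagln (transgelin) at 908 and 183 CPM, while the chemokine Ccl2 stood at 682 and 1861 CPM. The part of these differences in the matrix ratios was not tested.

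In both libraries nearly all members stood higher in feeders than in ES cells. Of the 31 members with enough UMIs in the control library, 30 were at least 1.5-fold higher in feeders than in cells under the 0.1% threshold, against 30.9% of all genes, and in the CX-5461 library 31 of 32 were, against 26.8%. By at least 10-fold, 23 were higher in control, against 5.19%, and 27 in CX-5461, against 4.57%. Against collagen-low ES cells the counts were the same, with backgrounds of 30.6% and 26.7%. At 10-fold or more there were then 25 members in control, against 5.64% of genes, and 27 in CX-5461, against 4.58%. The exception in both libraries was Lama1, which was lower in feeders by at least 1.5-fold, against 38.6% of all genes in control (39.2% with collagen-low ES cells) and 45% in CX-5461, with 1 feeder UMI but 203 and 373 UMIs in collagen-low ES cells. The feeders were chosen by 3 genes of the same kind, so these counts describe the classes and are not a test. The median log2 difference of the tested members between feeders and collagen-low ES cells was 7.52 in control and 6.46 in CX-5461.

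Free RNA from feeders can give ES cells UMIs of genes they do not make, and a single source would leave all feeder genes at 1 common fraction of their feeder level. The 12 non-member fibroblast markers were read as a reference for that fraction, but they did not share 1 value, so the reference is a range. Their level in collagen-low ES cells was a median of 0.400% of the feeder level in control, ranging from 0.0979% to 4.63%, and 0.149% in CX-5461, ranging from 0.0688% to 7.78%. The upper end was set by 1 gene in both libraries, Pdgfrb, on 46 and 87 UMIs in collagen-low ES cells. The next marker stood at 0.674% in control and 3.41% (Serpinf1) in CX-5461. Several members fell near the median: Col12a1, for example, stood at 0.280% (0.152 to 0.476) in control and 0.289% (0.175 to 0.452) in CX-5461, and Tnc at 0.161% and 0.163%. In all, 13 of 33 members in control and 7 in CX-5461 were at or below the markers' median. Mmp3 had no UMI in collagen-low ES cells of either library, 0 of 3562 and 0 of 4532 cells, which by a floor of 3 counts allows up to 0.0842% and 0.0662% of cells with a UMI, not of cells that express the gene.

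In control 10 members and in CX-5461 7 stood above the whole range of the fibroblast markers, 9 and 5 of them with the lower bound of the interval. Most of all measured genes also lie above that range, as only 5.64% in control and 4.58% in CX-5461 were at least 10-fold higher in feeders than in these cells. The 5 members above the range in both libraries apart from Lama1 were Col18a1, Lamc1, Nid1, Fn1 and Lamb1. Col18a1 in collagen-low ES cells was at 53.6% (43.3 to 66.9) of its feeder level in control and 56.2% (49.9 to 63.3) in CX-5461. Lamc1 was at 54.7% and 45.4%, Nid1 at 27.1% and 22.2%, Fn1 at 22.4% and 18.2% and Lamb1 at 7.604% and 8.99%. The CX-5461 interval of Lamb1 (7.66 to 10.6) reaches below the markers' highest value of 7.78%. With Lama1, 5 of these 6 genes belong to the basement membrane group. Sparc, Timp1, Mmp14 and Loxl2 were above the markers' range in control only, and their fractions went from 6.61% to 3.38%, from 7.94% to 5.46%, from 5.15% to 2.21% and from 12.9% to 1.54%. Elastin was above it in CX-5461 only, at 8.01% (5.24 to 12.3), on 56 ES cell UMIs and 40 feeder UMIs.

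**Figure D4:**
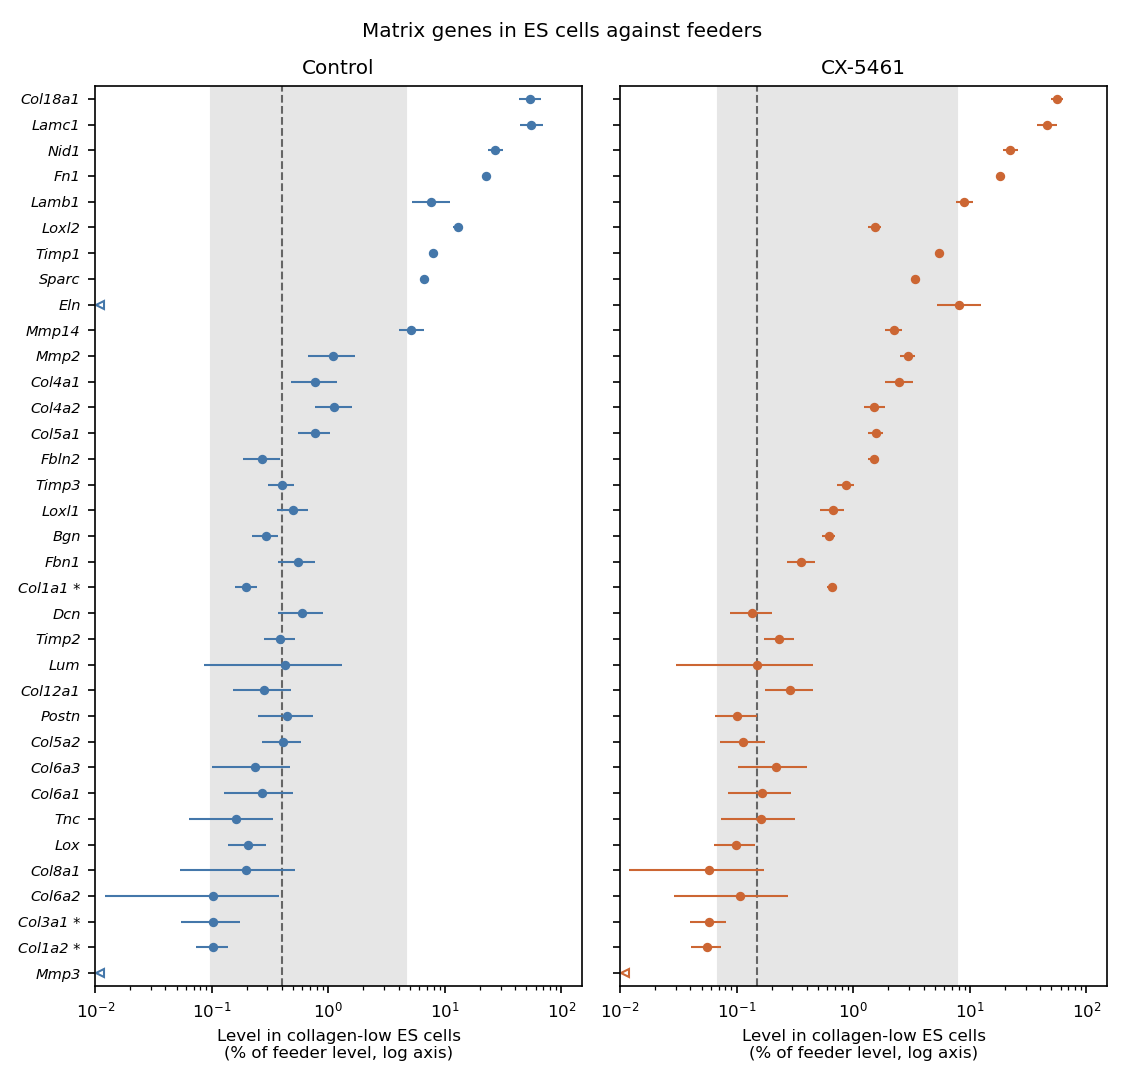
Level of each member in collagen-low ES cells as a percentage of its level in feeders (x axis, log), in control (left) and CX-5461 (right), with 95% counting intervals; open triangles mark genes without an ES cell UMI, and Lama1 is left out because feeders held 1 UMI of it. The grey band spans the 12 non-member fibroblast markers and the dashed line their median, 0.400% and 0.149%; Col18a1, Lamc1, Nid1 and Fn1 lie right of the band in both libraries.

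ES cell counts were also read by depth. The collagen-low ES cells of each library were split at their median depth, which gave control parts with medians of 3397 and 17796 UMIs. For Sparc the deeper control cells held 2.81 UMIs per cell and the shallower 1.10, for Fn1 1.46 and 0.485, for Timp1 1.39 and 0.432 and for Nid1 0.375 and 0.140. These genes were thus counted more often per deeper cell, but they held a smaller share of its UMIs. Their CPM in shallow and deep control cells was 205 and 141 for Sparc and 90.2 and 73.4 for Fn1. For Timp1 it was 80.5 and 69.7, and for Nid1 26.1 and 18.8. By UMIs per cell, which rise with depth itself, 26 of the 33 members held more per deep than per shallow cell in control and 23 in CX-5461. The same was so for 7 of the 12 fibroblast markers in control and 5 in CX-5461, so the split did not set members and markers fully apart. The share of all genes with more UMIs per deep cell was not computed, so these counts are a description. Acta2, Tagln and Serpinf1 held fewer UMIs per deep cell in both libraries. Acta2 stood at 0.0119 UMIs per deep and 0.343 per shallow cell in CX-5461, but its 805 UMIs there lay in 62 cells and 321 of them in 1 cell. Col1a1 also had more UMIs per deeper cell, at 0.0421 UMIs per deep control cell and 0.00955 per shallow cell, or 2.11 and 1.78 CPM. Each cell was then thinned to 3000 UMIs, so that 791 shallower control cells and 18 of CX-5461 dropped out. A Sparc UMI was then found in 36.3% (34.5 to 38.1) of control and 39.8% (38.4 to 41.2) of CX-5461 collagen-low ES cells, against 74.1% and 85.9% without thinning. The thinned shares were 21.4% and 30.0% for Fn1, 19.96% and 22.0% for Timp1, 5.16% and 4.63% for Lamc1 and 1.44% and 1.33% for Lama1.

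In ES cells the comparison of CX-5461 with control depended on how the cells were chosen. In all cells under 0.1% collagen UMIs, 7 of 33 members were higher in CX-5461, against 39.4% of 15684 genes, and 16 were lower, against 9.74%. A TMM scaling lowered every log2 ratio of this class by 0.35, after which 4 were higher and 16 lower. Of the UMIs of the 33 members in that control class, 25.05% came from the 64 cells between 0.02% and 0.1%, against 4.29% in CX-5461. In collagen-low ES cells 11 members were higher, against 40.9%, and 4 lower, against 8.79%, with 9 not past 1.5-fold and 9 under 50 UMIs. The median log2 ratio of the 24 measured members was 0.38 and that of all genes 0.42, so as a group the matrix genes did not stand apart from other genes there. The values that follow are for collagen-low ES cells.

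Other measures moved in the same collagen-low cells. The 8 primitive endoderm markers summed to 1.71 CPM in control and 7.98 CPM in CX-5461, a ratio of 4.67 (3.67 to 6.02), with none at 0. The sums rest on 77 and 517 UMIs. Most of those in CX-5461 came from 2 genes, Gata6 with 15 and 166 UMIs and Cubn with 6 and 234. The 8 macrophage markers summed to 30.1 and 27.2 CPM, but Lyz2 had 509 and 2 UMIs, C1qb 106 and 0 and Adgre1 21 and 0, the 509 Lyz2 UMIs in 12 cells. The 5 endothelial markers summed to 13.8 and 26.9 CPM with Cdh5 and Emcn at 0 in both, and the 4 globin genes to 0.1996 and 5.28 CPM. The median mitochondrial share was 2.37% and 4.13%. The part of these in the ES cell ratios was not tested.

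Col18a1 and Fn1 were the members with over 10 CPM in ES cells of both libraries that were higher with CX-5461. Col18a1 had 16.1 CPM in control and 46.8 CPM in CX-5461, a ratio of 2.91 (2.68 to 3.16), and was detected in 16.8% and 46.0% of cells. In thinned cells the shares were 4.73% (3.97 to 5.58) and 14.0% (13.0 to 15.0). Fn1 had 77.0 and 120.3 CPM, a ratio of 1.56 (1.502 to 1.63), detected in 52.5% and 74.1% of cells. Both genes overlap others on the opposite strand in the annotation, Slc19a1 in the case of Col18a1, so their counts may hold reads of these. Loxl2 and Nid1 were lower: Loxl2 went from 26.3 to 4.68 CPM, a ratio of 0.178 (0.156 to 0.202), and was detected in 23.7% and 6.38% of cells. Nid1 went from 20.4 to 13.1 CPM, a ratio of 0.644 (0.586 to 0.708). Loxl2 ran against its feeder ratio of 1.498, and the difference between the cell types was not tested. Sparc at 154 and 177 CPM, Timp1 at 72.0 and 83.4 CPM, Lamc1 at 14.6 and 14.8 CPM, Lama1 at 4.50 and 5.76 CPM and Mmp14 at 2.57 and 3.41 CPM did not reach 1.5-fold.

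A further set of members was rare in ES cells and higher in the CX-5461 library. The summed level of the primitive endoderm markers was also higher there (ratio 4.67), with most of the CX-5461 UMIs on Gata6 and Cubn. Fbln2 had 0.754 CPM in control and 7.38 CPM in CX-5461, a ratio of 9.78 (6.90 to 14.3), with UMIs in 0.702% and 8.98% of cells. Mmp2 had 0.510 and 4.31 CPM, a ratio of 8.44 (5.51 to 13.5), and Lamb1 had 1.40 and 6.16 CPM, a ratio of 4.41 (3.37 to 5.84). Col5a1, at 1.06 and 3.69 CPM, and Bgn, at 1.46 and 4.24 CPM, were higher as well. So were Col4a1 and Col4a2, with ratios of 2.42 and 2.41 and thus without the parting seen in feeders, and Timp3 with 1.87. Elastin had no UMI in 3562 control cells and 56 UMIs in CX-5461, which is at least 13.0-fold higher when 3 counts are set for the control library. All these levels were under 10 CPM, and no cell held more than 14 UMIs of any of them. At 50 UMIs or more the other lower members were Col5a2, with 30 and 22 UMIs, and Lox, with 30 and 26, whose ratio of 0.603 (0.343 to 1.05) has an interval that includes 1.

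The chains of type I and of type V collagen kept nearly 1 proportion in feeders but not in ES cells. Collagen-low control ES cells held 2.09 (1.44 to 3.07) Col1a1 UMIs per Col1a2 UMI, from 92 and 44 UMIs, and CX-5461 ES cells 13.0 (9.64 to 17.9), from 610 and 47 UMIs, against 1.08 and 1.10 in feeders. Col1a1 was found in 2.50% (2.01 to 3.07) of control and 12.1% (11.2 to 13.1) of CX-5461 collagen-low ES cells, while Col1a2 was found in 1.15% and 1.01%. After thinning, Col1a1 was in 0.433% (0.224 to 0.755) and 2.41% (1.99 to 2.91) of cells. The type V chains behaved alike, with 1.60 (0.993 to 2.62) Col5a1 UMIs per Col5a2 UMI in control and 10.9 (7.01 to 17.7) in CX-5461 ES cells, against 0.852 and 0.798 in feeders. The type IV chains ran otherwise, with 1.52 and 1.51 Col4a2 UMIs per Col4a1 UMI in ES cells and 1.04 and 2.46 in feeders. Fn1 stood at 0.499 UMIs per Sparc UMI in control and 0.680 in CX-5461 ES cells. In feeders it stood at 0.147 (0.138 to 0.156) and 0.126 (0.121 to 0.132), so this proportion also differed there. Since cells were kept out of this class by their collagen UMIs, the collagen levels themselves are bounded by that choice.

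**Figure D5:**
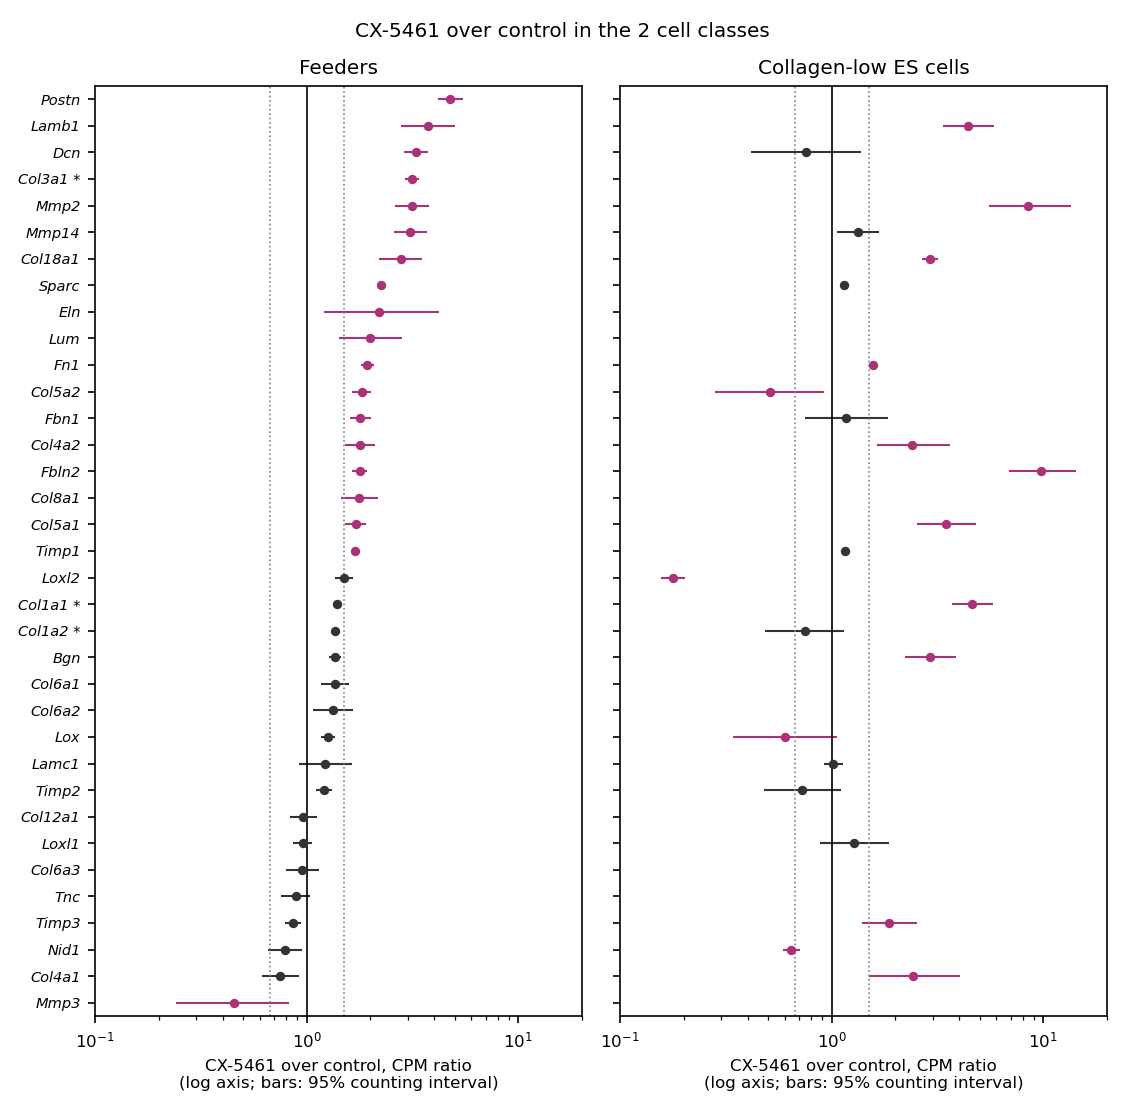
CX-5461 over control CPM ratio (x axis, log) of each member with at least 50 UMIs in feeders (left) and in collagen-low ES cells (right), with 95% counting intervals; dotted lines mark 1.5-fold either way, coloured points lie past them, and Eln is not drawn on the right because control had no UMI. Postn has the highest feeder ratio (4.77), Fbln2 the highest ES cell ratio drawn (9.78), and Loxl2 the lowest ES cell ratio (0.178).

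Other genes of the matrix pathway were read from lists chosen by function. Of 46 further matrix genes found in the tables, 22 were higher in CX-5461 feeders, 4 were lower, 7 were not past 1.5-fold and 13 had too few UMIs, beside 22.8% of all genes higher and 11.6% lower, with a median log2 ratio of 0.91 over the 33 measured. The list's summed level was 1907 CPM in each library, and its highest gene in control feeders ran the other way. Thbs1 (thrombospondin-1) had 587 and 113 CPM, against Efemp2 (fibulin-4) with 131 and 228 CPM. Among the largest ratios of the list were 10.2 (4.14 to 32.6) for Col14a1, on 1.53 and 15.6 CPM, 4.34 for the microfibril gene Mfap2, 0.192 for Thbs1 and 3.62 for Mmp11. Of 20 genes for collagen processing, 1 had too few UMIs. Among the 19 measured, 7 were higher and none lower, beside 22.8% and 11.6% of all genes. Their median log2 ratio was 0.20, beside 0.16 for all genes. The collagen chaperone Serpinh1 had 1203 and 1369 CPM and P4hb, a subunit of prolyl 4-hydroxylase, 440 and 446 CPM, both under 1.5-fold, while the procollagen enhancer Pcolce had 115 and 263 CPM. The lysyl hydroxylases Plod1 (ratio 3.34) and Plod2 (2.18), the prolyl hydroxylase subunit P4ha2 (2.58) and P3h3 (2.28) were also past 1.5-fold. Of 20 matrix receptors, 6 had too few UMIs. Among the 14 measured, 5 were higher and none lower, beside 22.8% and 11.6% of all genes, with a median log2 ratio of 0.32. Cd44, the hyaluronan receptor, had 484 and 333 CPM and integrin β1 (Itgb1) 228 and 183 CPM, while the syndecans Sdc1 and Sdc2 had ratios of 2.23 and 1.89, Itga7 of 2.11, Itgb5 of 1.61 and Ddr1 of 1.55. In collagen-low ES cells 30 further matrix genes, 19 processing genes and 14 receptors had at least 50 UMIs. Of these, 20, 9 and 10 were higher and 2, 0 and 0 were lower, beside the background of 40.9% and 8.79% of all genes. Their median log2 ratios were 1.20, 0.52 and 0.77, beside 0.42 for all genes.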

How the data were processed

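The authors deposited 1 table of UMI counts per gene and barcode for each condition, built from 10x Genomics 3' V2 reads by an earlier published pipeline for droplets. The submitters' processing notes name mm10 and Seurat 2.3.4, and the deposited counts are neither normalised nor filtered. Barcodes carry serial names that do not tell the 4 labelled samples of a condition apart.

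Cells with at least 500 UMIs and a mitochondrial fraction of at most 0.2 were kept. UMIs were summed per class of cells and scaled to CPM. Levels have exact Poisson intervals, ratios exact conditional binomial intervals and shares of cells Clopper-Pearson intervals, all at 95%. A ratio of 1.5-fold either way with at least 50 UMIs was called. Between-library factors came from TMM in edgeR 4.0.16 (R 4.3.3), and the remaining steps ran in Python 3.11.15 with numpy 2.4.6, scipy 1.17.1 and pandas 2.3.3. The intervals were tested on simulated counts drawn from the counting model that they assume, so that test does not cover variation between cells. With 1 library per condition, no model was fitted. The precision of a level is set by its number of UMIs, from 49483868 kept UMIs in control and 68745851 in CX-5461.

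The genes named were all members, and in each further list the 3 with the highest feeder level and, of those past 1.5-fold in feeders, at most 5 by size of ratio. A gene that this rule selects in the list of further matrix genes is not reported here. The members and lists were chosen with earlier results of these data known. The class under 0.02% of collagen UMIs and the feeders chosen by 12 fibroblast genes were added after the data were seen. Promoter windows came from RefSeq.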

Additional observations from a re-analysis of the deposited data

Results flagged for a closer look

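Col5a2, a type V collagen chain, differed in direction between the cell types. Its log2 ratio of CX-5461 over control was 0.86 in feeders, from 535 and 1104 UMIs, and -0.97 in collagen-low ES cells, from 30 and 22 UMIs. The difference between the cell types was not tested. Of the 30 control UMIs in ES cells, 8 came from 1 cell, and without the top cell of each library the ratio was 0.569 (0.288 to 1.11) against 0.510 with all cells, on 22 and 18 UMIs, under the minimum of 50 over both libraries.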

How the results depend on the processing

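The count of members higher in feeders stayed within 1.5 times 17 under every alternative except the 0.5% threshold, which gave 10 higher and 5 lower and rests on 11 control feeders. The lower count of 1 became 0 with a minimum of 200 UMIs and also without the cell with the most UMIs of each gene. In ES cells under 0.1%, the 16 lower members became 8 at a threshold of 0.05%, 9 at 0.5%, 3 in cells with no UMI of the 3 collagens, 7 with a minimum of 200 UMIs, 5 in cells thinned to 3000 UMIs and 4 under 0.02%. The 7 higher members became 4 with TMM, 11 without collagen UMIs and 11 under 0.02%. The share of feeders was 4.65% of control cells at 0.05%, 0.292% of control and 0.724% of CX-5461 cells at 0.5%, and 5.89% of control cells by fibroblast genes. Reversed log2 ratios in feeders at 0.5% were -0.0055 for Col5a2, -0.26 for Col8a1 and -0.27 for Col18a1. In ES cells they were 0.054 for Timp3 at 0.05%, and 0.065 for Col5a2, 0.84 for Dcn and 1.42 for Postn at 0.5%. Without collagen UMIs they were 0.36 for Col6a3, 0.70 for Col12a1, 1.43 for Dcn, 1.76 for Bgn, 0.38 for Postn, 0.16 for Fbn1, 0.66 for Loxl1, 1.06 for Timp3 and 0.84 for Tnc. Under 0.02% they were 1.54 for Bgn, 0.12 for Postn, 0.22 for Fbn1, 0.35 for Loxl1 and 0.90 for Timp3. Beyond these choices of cells, the cause was not tested. The limits of 0.02%, the fibroblast genes and the removal of each gene's top cell were chosen after seeing the data. No paired analysis was possible because the tables pool the numbered samples of a condition. Single libraries give no replicate error, so differences between the conditions and between the libraries cannot be told apart.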
